A study of Mus musculus with 2 samples.

Results

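Potassium channel genes were taken as every gene whose symbol begins with Kcn and that had at least 50 unique molecular identifiers (UMIs, each standing for 1 captured transcript) over both libraries. Of 99 Kcn genes among the 28693 genes listed, 57 met this minimum. They comprise 25 voltage-gated, 7 calcium-activated, 7 two-pore and 5 inward rectifier subunits, 9 auxiliary subunits and 4 non-coding transcripts. Kcna1 and Kcnj10 lay just inside the minimum with 51 UMIs each, and Kcnj2 with 49 and Kcnc2 with 45 lay just outside. A further 9 Kcn genes had no UMI in any barcode, among them Kcnj11, a pore subunit of ATP-sensitive channels.

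The cells came from whole pituitary glands of male C57BL/6 mice aged 7 weeks and housed individually, with no treatment and no engineered allele. Each of 2 libraries was made from a pool of 3 glands, digested for 4 h, with a viability of 71 to 82%, so the comparisons are between cell classes of the same glands. The 2 pools are the replicates throughout, and the pool is a term in the fit. The p-values therefore measure only how far differences between classes varied from pool to pool, with the spread estimated over all classes together. After filtering, library 1 held 6011 cells and library 2 held 6523, and the libraries shared 54 barcode sequences among 13663 barcodes.

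Potassium channels let potassium leave the cell and so pull the membrane potential down. Many hormone cells of the pituitary fire spontaneous action potentials, and the calcium that enters with them drives hormone release. Two-pore channels carry background current at rest, voltage-gated and calcium-activated channels end the action potential, and inward rectifiers of the Kir3 group open when inhibitory G-protein-coupled receptors are activated.

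Levels are UMIs of a gene per 1000000 UMIs (CPM) outside 7 hormone genes (Gh, Prl, Pomc, Cga, Lhb, Fshb, Tshb), which together took 50.0% and 48.6% of all UMIs in the 2 libraries. They are given as library 1 and library 2, or as mean ± SD (n = 2 libraries). Reads came from transcript 3′ ends, so a level can be compared between classes for 1 gene but not between genes. Cells were clustered on marker genes that include no Kcn gene, and classes carry the suffix "-like" because they were named from those markers. The hormone classes in the tests were somatotrope-like (2584 and 2634 cells), lactotrope-like (1426 and 1761), gonadotrope-like (263 and 273), corticotrope-like (226 and 297) and melanotrope-like cells (105 and 137). Stem-like, cycling, endothelial-like, fibroblast-like, macrophage-like and pituicyte-like cells numbered between 22 and 183 per library, and the smallest of them were pituicyte-like cells (22 and 33). Thyrotrope-like cells (10 and 33) were too few for the tests. Cycling cells were mostly Gh-rich. Another 7 clusters with 12.9% of the cells were left unnamed.

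Of the 57 genes, 28 reached a mean of 20 CPM in at least 1 class. All of those 28 were among the 34 that passed the filter on low counts and were tested. The other 29 stayed below 20 CPM in every class named, from 1.99 for Kcnv2 to 18.8 for Kcnd3, and 23 of the 57 were not tested. Classes differed in their summed level of potassium channel transcripts and in the sums over single families. The summed level of the protein-coding members was 964 and 1115 in stem-like cells, 882 and 861 in corticotrope-like cells, 854 and 787 in somatotrope-like cells, and 735 and 730 in gonadotrope-like cells. It was 676 and 721 in melanotrope-like cells and 442 and 437 in lactotrope-like cells, where both libraries were below those of every other hormone class in the tests. Outside the hormone and stem-like cells it was lower still in endothelial-like (332 and 397), fibroblast-like (347 and 333), pituicyte-like (188 and 246) and macrophage-like cells (216 and 171). Sums over a family were also compared between classes. That of the two-pore genes was 708 ± 103 in stem-like cells, against 339 ± 20.9 in corticotrope-like cells. That of the inward rectifiers was 170 ± 41.1 in endothelial-like and 147 ± 12.4 in fibroblast-like cells, against 7.30 ± 0.246 in gonadotrope-like cells. Single genes made much of these sums. Kcnk1 alone was at 492 CPM in stem-like cells, and Kcnj8 alone at 163 in endothelial-like and 142 in fibroblast-like cells. The place of stem-like cells at the top of the summed level therefore rests on Kcnk1.

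**Figure D1:**
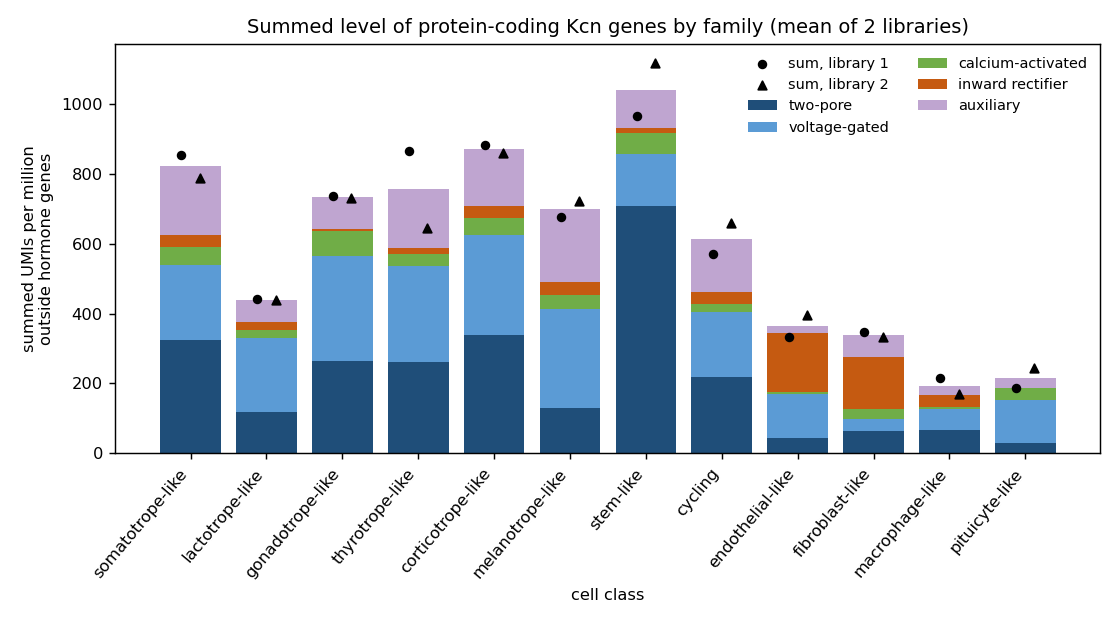
Summed level of the protein-coding Kcn genes in each cell class, stacked by channel family. The y axis gives UMIs per 1000000 UMIs outside hormone genes, bars are the mean of 2 libraries, and black symbols mark the whole sum in each library. Stem-like cells stand highest at 1040, of which Kcnk1 alone gives 492, and lactotrope-like cells lowest of the hormone classes at 440.

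Each hormone class was compared with the mean of the other hormone classes, and each other class with the mean of the hormone classes, by edgeR's quasi-likelihood test on counts summed per class and library, with Benjamini-Hochberg adjustment over all 11943 genes tested and a threshold of 0.05. The low-count filter could be passed through the libraries of a single class. Kcna4, Kcnc4, Kcnab1, Kcnq1, Kcnh1 and Kcnj9 passed it only through the class where they were highest, and are then counted as higher there. Other members, Kcnd3 among them, may have done so too. Of the 34 members tested, 32 differed among the hormone classes, against 73.9% of all genes. The exceptions were Kcnab1 (adjusted p = 0.497) and Kcne1l (adjusted p = 0.94). In somatotrope-like cells 23 of 34 were called, 13 higher and 10 lower, against 46.6% of all genes (26.9% higher, 19.7% lower), and with DESeq2 in place of edgeR the split was 10 higher and 14 lower. In gonadotrope-like cells 22 were called, 13 higher and 9 lower (36.5% of all genes, 19.8% higher and 16.7% lower). In corticotrope-like cells 18 were called, 12 higher and 6 lower (30.1%, 18.2% higher and 12% lower). In melanotrope-like cells 13 were called, 11 higher and 2 lower (19.1%, 12.6% higher and 6.54% lower). In lactotrope-like cells 19 were called, 4 higher and 15 lower, against 42.4% of all genes (16.9% higher, 25.5% lower). The median log2 difference of the tested members was -0.71 in lactotrope-like cells, where that of all genes was -0.08.

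Stem-like cells had 23 of the 34 called, 9 higher and 14 lower, against 58% of all genes (34.7% higher, 23.2% lower). In endothelial-like cells 25 were called, 3 higher and 22 lower (57.6% of all genes, 28.5% higher and 29.1% lower). In fibroblast-like cells 19 were called, 3 higher and 16 lower (38.2%, 19.8% higher and 18.4% lower). In macrophage-like cells 16 were called, 1 higher and 15 lower (46.5%, 13.1% higher and 33.4% lower). In pituicyte-like cells 13 were called, 1 higher and 12 lower (21.4%, 13.7% higher and 7.64% lower). Cycling cells had 11 called, 7 higher and 4 lower (34.2%, 22.8% higher and 11.4% lower). The median log2 difference of the tested members was -2.26 in endothelial-like, -2.57 in fibroblast-like, -1.69 in macrophage-like and -3.48 in pituicyte-like cells, where all genes had -0.10, -0.15, -0.70 and -0.01. Many members had no UMI in pituicyte-like cells, where 3 counts over both libraries equal 10.1 CPM. The median there thus rests largely on empty counts and does not measure the size of the drop. For members without a UMI there, the largest drop the counts could bound was 2.70-fold (Kcnk12). The counts in macrophage-like and pituicyte-like cells fell to 8 and 2 without library 2, and in pituicyte-like cells to 5 without library 1. Without library 2 the count fell to 7 in melanotrope-like and 7 in cycling cells, and with DESeq2 to 10 in fibroblast-like, 8 in macrophage-like and 5 in pituicyte-like cells.

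**Figure D2:**
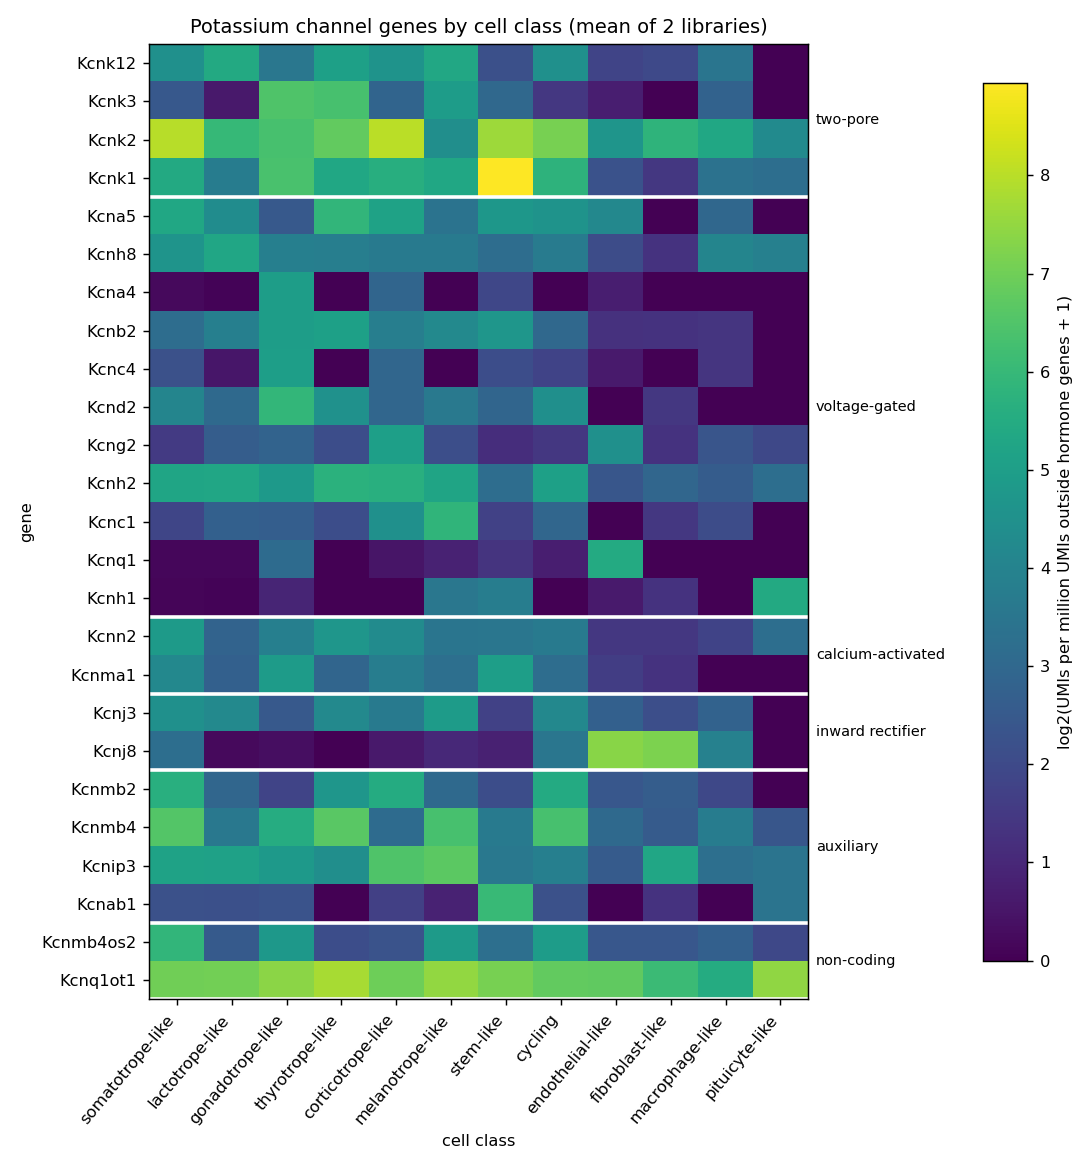
Mean level over 2 libraries of 25 of the 28 Kcn genes that reached 20 CPM in at least 1 class (rows, grouped by family) in each cell class (columns). Colour is log2 of UMIs per 1000000 UMIs outside hormone genes plus 1, and the brightest cell is Kcnk1 in stem-like cells at 492 CPM.

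Among the two-pore channels, each of 4 genes was highest in a different class. Kcnk1 (chr8:125995170-126030685, mm10) encodes TWIK-1, a weakly conducting background channel. Its level was 433 and 551 CPM in stem-like cells, 82.7 and 83.3 in gonadotrope-like cells, 48.5 and 47.2 in corticotrope-like cells, 40.3 and 44.6 in somatotrope-like cells and 11.8 and 13.0 in lactotrope-like cells. In endothelial-like cells it was 4.18 and 3.41. Both stem-like libraries lay far above every other class, and the level exceeded the mean of the hormone classes by 3.69 ± 0.07 on the log2 scale (SE, edgeR adjusted p = 2.91e-72). The gonadotrope-like cells were the highest hormone class (log2 difference 1.40 ± 0.12, edgeR adjusted p = 2.45e-19) and the lactotrope-like cells the lowest (-2.02 ± 0.13, edgeR adjusted p = 1.66e-25). When every cell was thinned to 1000 UMIs outside the hormone genes, 37.0% ± 2.08 of stem-like cells held a Kcnk1 UMI, against 1.39% ± 0.149 of endothelial-like cells. Without thinning these shares were 91.0% and 2.07%, with a median depth of 8897 and 9157 UMIs outside the hormone genes in stem-like and 4303 and 4353 in endothelial-like cells. No other class passed 5.80% after thinning.

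Kcnk2 (chr1:189207930-189402273) encodes TREK-1, a background channel gated by stretch, lipids and intracellular signals. It stood at 266 and 255 CPM in corticotrope-like cells, 266 and 233 in somatotrope-like cells and 185 and 214 in stem-like cells. The level was 82.2 and 79.7 in gonadotrope-like cells, 65.5 and 59.8 in lactotrope-like cells and 12.3 and 28.9 in melanotrope-like cells. Corticotrope-like and somatotrope-like cells overlapped, and the libraries of gonadotrope-like, lactotrope-like and melanotrope-like cells followed below them in that order without overlap. Relative to the other hormone classes, Kcnk2 rose by 1.85 ± 0.11 (log2) in corticotrope-like and 1.77 ± 0.07 in somatotrope-like cells, and fell by 2.63 ± 0.24 in melanotrope-like cells. The edgeR adjusted p-values were 3.54e-21, 8.75e-28 and 2.97e-13. Without library 2 the melanotrope-like difference was -3.50. After thinning, 22.6% ± 3.22 of somatotrope-like and 20.4% ± 1.21 of corticotrope-like cells held a Kcnk2 UMI, against 1.46% ± 2.07 of melanotrope-like and 2.45% ± 0.751 of endothelial-like cells. Unthinned, the shares were 68.2%, 61.3%, 5.81% and 7.65%. Median depths were 4945 and 5217 UMIs outside the hormone genes in somatotrope-like cells and 4134 and 3944 in corticotrope-like cells. The share in melanotrope-like cells was thus no higher than in endothelial-like cells.

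Kcnk3 (chr5:30588170-30625271) encodes TASK-1, a background channel closed by external acid. Its level was 88.2 and 89.0 CPM in gonadotrope-like cells and 34.7 and 24.1 in melanotrope-like cells. In corticotrope-like cells it was 5.16 and 7.45, in somatotrope-like cells 5.86 and 3.28 and in lactotrope-like cells 0.768 and 0.30, the last from 9 UMIs in all. The log2 difference from the other hormone classes was 4.25 ± 0.17 in gonadotrope-like cells (edgeR adjusted p = 1.16e-46) and -4.91 ± 0.38 in lactotrope-like cells (edgeR adjusted p = 3.71e-23). Thinned cells held a Kcnk3 UMI in 8.41% ± 1.01 of gonadotrope-like and 0.063% ± 0.00943 of lactotrope-like cells, and in none of the endothelial-like cells. Unthinned, these shares were 44.4%, 0.296% and 0.370%. In the few thyrotrope-like cells Kcnk3 stood at 86.5 and 72.5 CPM, close to the gonadotrope-like level.

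Kcnk12 encodes THIK-2, which carries little current on its own. It was 42.5 and 41.6 CPM in lactotrope-like cells, 21.7 and 21.1 in somatotrope-like cells and 11 and 10.2 in gonadotrope-like cells. Those 3 classes did not overlap, while the melanotrope-like libraries were at 26.6 and 53.0 and the corticotrope-like at 33.0 and 13.2, spanning their neighbours. Kcnk12 was higher in lactotrope-like cells by 0.98 ± 0.13 (log2, edgeR adjusted p = 3.41e-10) and lower in gonadotrope-like and stem-like cells, by -1.50 ± 0.23 and -2.77 ± 0.32. The remaining two-pore genes Kcnk5, Kcnk6 and Kcnk10 peaked between 3.93 and 9.12 CPM and were not tested. Kcnk10, the close relative of Kcnk2 that encodes TREK-2, was at 3.52 and 4.85 in somatotrope-like cells and had no UMI in gonadotrope-like, corticotrope-like and melanotrope-like cells, which allows levels of up to 0.705, 1.38 and 2.70 (3 counts over both libraries, counting error only).

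**Figure D3:**
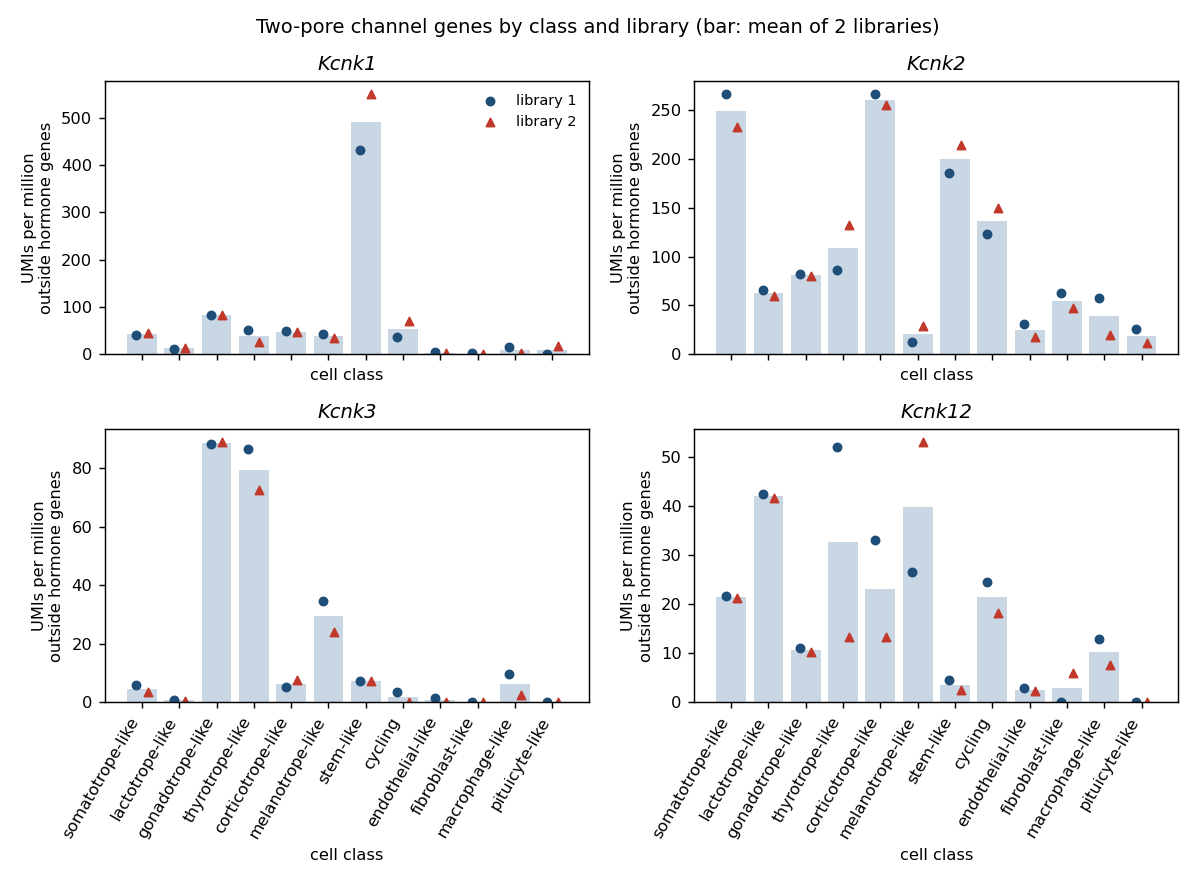
Levels of Kcnk1, Kcnk2, Kcnk3 and Kcnk12 by cell class, in UMIs per 1000000 UMIs outside hormone genes. Bars are the mean of 2 libraries and symbols the libraries. Kcnk1 peaks in stem-like cells (433 and 551), Kcnk2 in corticotrope-like and somatotrope-like cells (233 to 266), Kcnk3 in gonadotrope-like cells (88.2 and 89.0) and Kcnk12 in lactotrope-like cells (42.5 and 41.6), where the melanotrope-like libraries span it.

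The large-conductance calcium-activated (BK) channel is built from a pore, encoded by Kcnma1, and β subunits that alter its gating. The β2 subunit encoded by Kcnmb2 inactivates the channel, and the β4 subunit encoded by Kcnmb4 slows its activation. The pore gene was at 34.4 and 23.1 CPM in gonadotrope-like cells, 30.4 and 31.9 in stem-like cells, 18.3 and 15.8 in somatotrope-like cells and 5.24 and 6.29 in lactotrope-like cells. Kcnmb4 was at 86.8 and 101 in somatotrope-like, 85.8 and 73.9 in melanotrope-like and 44.8 and 46.7 in gonadotrope-like cells, and at 11 and 10.7 in lactotrope-like and 11.3 and 4.14 in corticotrope-like cells. Kcnmb2 was at 53.6 and 43.6 in somatotrope-like and 49.5 and 39.7 in corticotrope-like cells, and between 2.23 and 8.17 in every library of gonadotrope-like, lactotrope-like and melanotrope-like cells. Across classes, somatotrope-like cells were thus among the highest for each β gene and lactotrope-like cells among the lowest for each. Melanotrope-like cells were near the top for Kcnmb4 and low for Kcnmb2, and corticotrope-like cells the reverse.

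In the tests Kcnmb4 was higher in somatotrope-like cells (log2 difference 2.01 ± 0.11), melanotrope-like cells (1.71 ± 0.21) and gonadotrope-like cells (0.72 ± 0.16), and lower in lactotrope-like (-1.87 ± 0.19) and corticotrope-like cells (-2.57 ± 0.29). The edgeR adjusted p-values for the first, the fourth and the fifth were 1.83e-34, 4.77e-16 and 1.08e-13. The gonadotrope-like difference rests on the mean of log2 levels, since the mean level there was 0.953 times that of the other hormone classes. In corticotrope-like cells the difference ranged from -3.41 without library 1 to -1.92 without library 2. Kcnmb2 was higher in somatotrope-like (2.47 ± 0.15, edgeR adjusted p = 9.88e-32) and corticotrope-like cells (2.31 ± 0.23, edgeR adjusted p = 6.78e-16) and lower in gonadotrope-like cells (-2.78 ± 0.38). Kcnma1 was higher in gonadotrope-like (1.49 ± 0.22) and stem-like cells (1.32 ± 0.20), while in stem-like cells Kcnmb2 was at 3.55 and 3.04 and Kcnmb4 at 16.2 and 7.60, both lower than the hormone mean (-1.89 ± 0.37 and -1.36 ± 0.22, the latter -2.04 without library 1). Cycling cells, which are mostly Gh-rich, had 43.8 and 43.4 for Kcnmb2 and 80.6 and 79.9 for Kcnmb4, close to the somatotrope-like levels.

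Kcnmb4 is overlapped at its start by the non-coding transcript Kcnmb4os2 on the opposite strand. Kcnmb4 spans chr10:116417861-116473878 on the minus strand and Kcnmb4os2 spans chr10:116473163-116475319 on the plus strand (mm10, GENCODE), so the genes share 716 bases. Their start regions, from 250 bases before to 50 bases after each start, are shown because the pair kept nearly the same order of classes. They come from RefSeq (GRCm38.p6), are written 5′ to 3′ on each gene's own strand, and capitals mark the letters GGGCGG, a GC box, on either strand.
Kcnmb4, chr10:116473474-116473773, minus strand: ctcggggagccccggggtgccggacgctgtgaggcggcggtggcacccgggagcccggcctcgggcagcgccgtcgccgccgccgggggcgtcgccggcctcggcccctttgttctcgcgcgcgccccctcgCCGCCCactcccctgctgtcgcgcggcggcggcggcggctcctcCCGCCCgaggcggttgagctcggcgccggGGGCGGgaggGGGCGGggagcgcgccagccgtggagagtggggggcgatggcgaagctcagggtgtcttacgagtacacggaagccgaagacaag
Kcnmb4os2, chr10:116472913-116473212, plus strand: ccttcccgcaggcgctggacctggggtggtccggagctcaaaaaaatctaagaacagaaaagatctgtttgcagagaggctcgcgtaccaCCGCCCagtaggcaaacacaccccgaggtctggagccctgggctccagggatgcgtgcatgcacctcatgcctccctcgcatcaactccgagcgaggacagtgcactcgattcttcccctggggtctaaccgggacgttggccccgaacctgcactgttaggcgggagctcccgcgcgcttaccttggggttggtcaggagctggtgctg

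The Kcnmb4 region is 79% G or C with 48 CpG and 4 GC boxes, and the Kcnmb4os2 region is 61.7% G or C with 19 CpG and 1 GC box. Neither holds TATAAA on either strand. Of 27025 such regions, 1 per gene, 35.9% hold GGGCGG and 14.2% hold TATAAA, and 22 and 1 of the 38 members matched to RefSeq hold them. Kcnmb4os2 was at 53.2 and 62.7 CPM in somatotrope-like, 26.6 and 30.5 in melanotrope-like, 25.9 and 27.2 in gonadotrope-like, 4.73 and 4.90 in lactotrope-like and 2.06 and 5.79 in corticotrope-like cells. Like Kcnmb4 it was higher in somatotrope-like cells (2.38 ± 0.13), gonadotrope-like cells (0.97 ± 0.21) and melanotrope-like cells (1.11 ± 0.32) and lower in lactotrope-like (-2.09 ± 0.26) and corticotrope-like cells (-2.37 ± 0.38). The corticotrope-like difference was -3.28 without library 2. The melanotrope-like call was lost without either library (edgeR adjusted p = 0.0546 and 0.157). The sources used here do not say whether counting was strand-aware, so reads in the shared bases could belong to either gene.

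**Figure D4:**
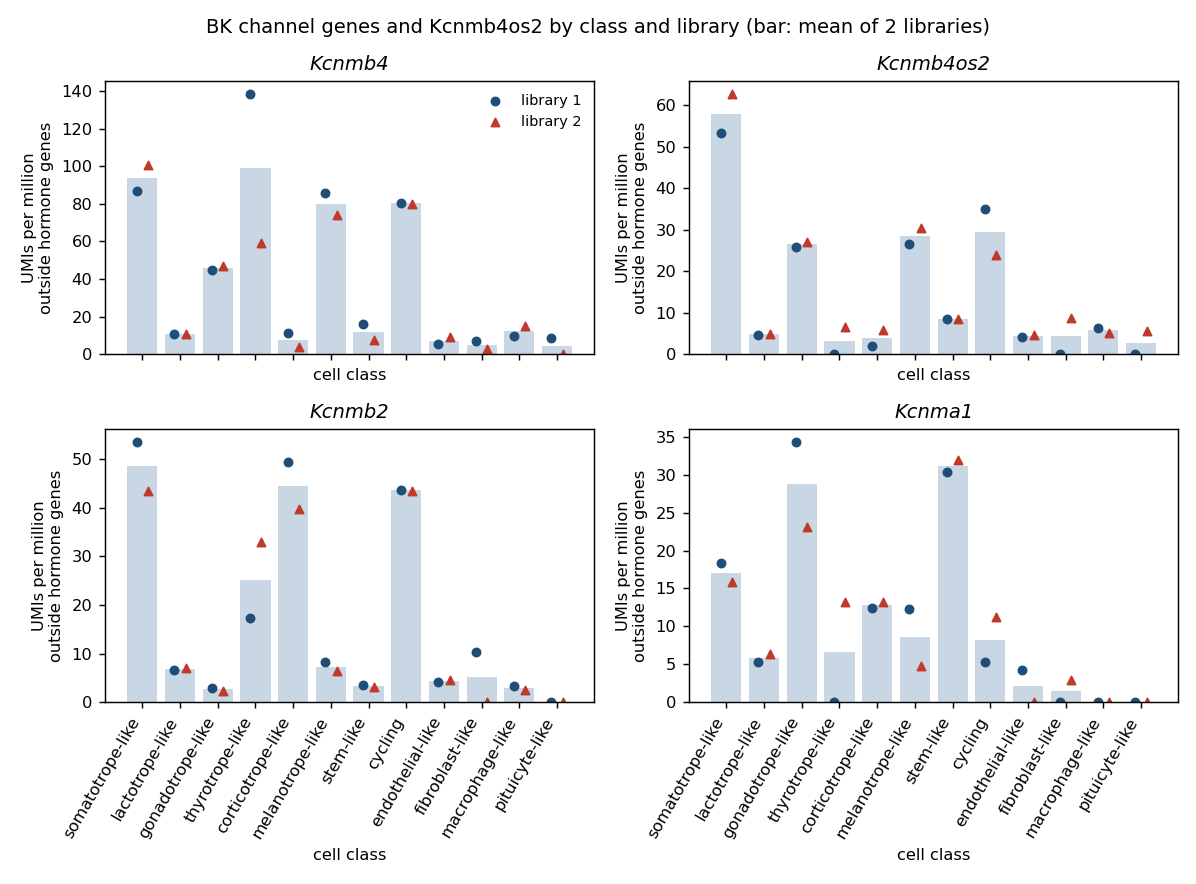
Levels of the BK channel genes Kcnmb4, Kcnmb2 and Kcnma1 and of the antisense transcript Kcnmb4os2 by cell class, in UMIs per 1000000 UMIs outside hormone genes. Bars are the mean of 2 libraries and symbols the libraries. Kcnmb4 and Kcnmb4os2 both peak in somatotrope-like cells among the classes tested and are low in lactotrope-like and corticotrope-like cells, while Kcnmb2 is as high in corticotrope-like (39.7 and 49.5) as in somatotrope-like cells (43.6 and 53.6).

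Of the small-conductance and sodium-activated relatives, Kcnn2, which encodes SK2, was at 30.5 and 26.2 CPM in somatotrope-like, 20.6 and 17.4 in corticotrope-like and 6.52 and 5.79 in lactotrope-like cells. It was higher in somatotrope-like cells by 1.31 ± 0.16 (log2, edgeR adjusted p = 2.69e-12). Kcnn3, which encodes SK3, was at most 0.999 CPM in each library of somatotrope-like and lactotrope-like cells and was at 11 and 11.6 in gonadotrope-like cells. Kcnt1, which encodes a sodium-activated channel, was at 14.4 and 12.9 in gonadotrope-like and 12.3 and 14.5 in melanotrope-like cells.

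Voltage-gated genes differed in the hormone class where they were highest, and some, such as Kcna5 and Kcnh2, were shared between classes. Of those that reached 20 CPM, 4 had their highest mean in gonadotrope-like cells. Kcna4, which encodes the A-type channel Kv1.4, was at 27.4 and 32.9 CPM there, at 4.13 and 9.10 in corticotrope-like cells and at most 0.285 in each library of somatotrope-like and lactotrope-like cells. Kcnc4, which encodes the fast A-type channel Kv3.4, was at 33.9 and 29.4 in gonadotrope-like cells and at most 7.45 in any library of another hormone class tested. Kcnd2, which encodes the A-type channel Kv4.2, was at 59.3 and 60.1, with 14.1 and 17.5 in somatotrope-like cells as the next hormone class tested. Kcnb2, which encodes the delayed rectifier Kv2.2, was at 27.9 and 32.9 in gonadotrope-like and 22.3 and 27.4 in stem-like cells, and at 8.13 and 8.20 in somatotrope-like cells. For Kcna4, Kcnc4 and Kcnd2 both gonadotrope-like libraries were above every library of the other hormone classes tested. The log2 differences were 6.71 ± 0.44 for Kcna4, 5.18 ± 0.39 for Kcnc4, 2.60 ± 0.18 for Kcnd2 and 1.27 ± 0.20 for Kcnb2, with edgeR adjusted p-values of 4.33e-28, 1.32e-23, 2.15e-27 and 2.27e-08. Kcna4 and Kcnc4 passed the low-count filter only through gonadotrope-like cells, so their p-values are not independent of that selection. The fit takes the mean of log2 levels over the other classes, so these differences exceed the ratios of mean levels, which were 17.6, 11.6, 5.79 and 2.34. The same cells were low for Kcna5 (3.49 and 5.79 CPM, log2 difference -2.26 ± 0.32).

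Kcnd3, which encodes the other A-type channel of this group, Kv4.3, had the opposite place. It was at 19.2 and 18.5 CPM in lactotrope-like cells, 7.19 and 6.06 in somatotrope-like cells and 1.99 and 0.89 in gonadotrope-like cells. It was higher in lactotrope-like cells (log2 difference 2.87) although its mean stayed under 20 CPM. The next class was melanotrope-like cells, at a mean of 8.9 CPM. Kcnd3 may thus have passed the low-count filter only through lactotrope-like cells, and its call is not independent support. Kcnh8, which encodes the Elk channel Kv12.1, was at 36.8 and 38.7 in lactotrope-like cells and 27.3 and 20.7 in somatotrope-like cells, and at most 17.7 in each library of the other hormone classes tested. The log2 difference in lactotrope-like cells was 1.34 ± 0.15 (edgeR adjusted p = 2.25e-12). These cells were lower for Kcnc1 (-1.0 ± 0.22), a call lost without library 1 (edgeR adjusted p = 0.0663), and for Kcnd2 (-1.16 ± 0.22).

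In corticotrope-like cells the clearest voltage-gated gene was Kcng2, which encodes Kv6.2, a subunit that forms channels only together with Kv2 subunits. It was at 34.0 and 30.6 CPM there, at 15.3 and 27.3 in endothelial-like cells and between 1.80 and 7.57 in every library of the other hormone classes tested. The log2 difference was 3.04 ± 0.30 in corticotrope-like (edgeR adjusted p = 3.69e-16) and 1.87 ± 0.36 in endothelial-like cells. Kcnb2, a Kv2 gene, was at 15.5 and 10.8 in corticotrope-like cells. Kcna5, which encodes the delayed rectifier Kv1.5, was at 33.0 and 35.6 in corticotrope-like and 42.2 and 36.1 in somatotrope-like cells, against 19.6 and 19.7 in lactotrope-like cells. It was higher in the corticotrope-like (1.32 ± 0.24) and somatotrope-like cells (1.55 ± 0.15). Kcnh2, which encodes the ERG channel, lay between 25.4 and 54.7 in every library of the 5 hormone classes tested, with the highest mean in corticotrope-like cells. Its log2 difference there was 0.50 ± 0.18, and the call was lost without library 1 (edgeR adjusted p = 0.35).

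Melanotrope-like cells were highest for Kcnc1, which encodes the fast delayed rectifier Kv3.1. Kcnc1 was at 77.6 and 35.3 CPM, with library 1 well above library 2, against 17.5 and 25.7 in corticotrope-like cells and at most 6.09 in every library of the other hormone classes tested. The log2 difference was 3.04 ± 0.31 (edgeR adjusted p = 1.98e-15), and 2.38 without library 1. Kcnh1, which encodes the EAG channel, was at 10.2 and 11.2 in melanotrope-like cells and had no UMI in corticotrope-like cells, which against 3 counts over both libraries is at least 7.79-fold lower.

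Outside the hormone classes, 2 voltage-gated genes stood out. Kcnq1, which encodes a slow delayed rectifier, was at 37.7 and 48.9 CPM in endothelial-like cells, at 7.47 and 8.01 in gonadotrope-like cells and at most 2.03 in each library of the remaining classes. The log2 difference in endothelial-like cells, through which alone Kcnq1 passed the low-count filter, was 6.14 ± 0.44 (edgeR adjusted p = 1.53e-25). Its gene body holds the antisense transcript Kcnq1ot1, so reads within that stretch could belong to either. Kcnh1 was at 51.3 and 33.5 in pituicyte-like cells, from 12 UMIs in all, and at 14.2 and 11.7 in stem-like cells. The log2 difference in pituicyte-like cells, through which alone Kcnh1 passed the low-count filter, was 6.83 ± 0.95 (edgeR adjusted p = 1.42e-09). This p-value is thus not independent of that selection. A Kcnh1 UMI was held by 22.7% ± 6.43 of those cells, or 7.58% ± 2.14 after thinning. Endothelial-like cells held Kcnh1 UMIs in 0.321% unthinned and in none after thinning. Kcnd2 had no UMI in endothelial-like, macrophage-like or pituicyte-like cells. Against 3 counts over both libraries, this is at least 10.7-fold, 4.76-fold and 1.99-fold lower than the hormone mean of 20.2 CPM. By the same bound Kcna5 was at least 4.49-fold lower in fibroblast-like cells.

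Auxiliary subunits other than the BK β genes were led by Kcnip3 and Kcnab1. Kcnip3 encodes KChIP3, a calcium-binding partner of Kv4 channels also known as DREAM and calsenilin. It was at 104 and 101 CPM in melanotrope-like, 82.5 and 96.0 in corticotrope-like, 38.2 and 31.5 in somatotrope-like, 33.3 and 34.0 in lactotrope-like and 26.9 and 28.9 in gonadotrope-like cells. Both Pomc classes were above the others without overlap, and the log2 difference was 1.31 ± 0.17 in melanotrope-like and 1.07 ± 0.14 in corticotrope-like cells (edgeR adjusted p = 1.36e-10 and 6.35e-11). The Kv4 genes were arranged otherwise: Kcnd2 was at 8.17 and 14.5 in melanotrope-like and 6.19 and 7.45 in corticotrope-like cells, both far under its gonadotrope-like level. Kcnip2, which encodes KChIP2, peaked in somatotrope-like cells at 15.1 and 12.3 and was not tested. Kcnab1, which encodes the Kvβ1 subunit, was at 57.8 and 72.0 in stem-like cells, 8.55 and 11.2 in pituicyte-like cells and at most 5.60 elsewhere. The log2 difference in stem-like cells, through which alone Kcnab1 passed the low-count filter, was 4.64 ± 0.22 (edgeR adjusted p = 2.18e-41). Thinned stem-like cells held a Kcnab1 UMI in 7.67% ± 0.805, against none of the endothelial-like cells, and unthinned in 42.8% against none.

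Stem-like cells combined high Kcnk1, Kcnk2, Kcnab1 and Kcnma1 with low levels of the genes shared by the hormone classes. Kcnh2 was at 7.60 and 8.62 CPM there (log2 difference -2.18 ± 0.23) and Kcnip3 at 13.7 and 8.11 (-2.19 ± 0.19). Both genes were below every library of the 5 hormone classes in both stem-like libraries. Kcnk2 was higher (1.10 ± 0.09, edgeR adjusted p = 1.93e-15). Kcnb2 (0.72 ± 0.20) and Kcna5 (0.64 ± 0.20) were also higher, and both calls were lost without library 2 (edgeR adjusted p = 0.0944 and 0.111).

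Among the inward rectifiers Kcnj8 was highest in endothelial-like and fibroblast-like cells, while Kcnj3 was highest in melanotrope-like and Kcnj6 and Kcnj9 in corticotrope-like cells. Kcnj8 encodes Kir6.1, the pore of vascular ATP-sensitive channels, which pairs with the sulfonylurea receptor encoded by Abcc9. It was at 132 and 194 CPM in endothelial-like and 149 and 136 in fibroblast-like cells, at 16.1 and 12.6 in macrophage-like cells, at 8.44 and 8.48 in somatotrope-like cells and at most 2.04 in the other hormone classes. Somatotrope-like cells were the highest hormone class (log2 difference 4.38 ± 0.39). The log2 difference was 7.78 ± 0.25 in endothelial-like (edgeR adjusted p = 2.27e-58) and 7.56 ± 0.37 in fibroblast-like cells (edgeR adjusted p = 2.43e-40). Abcc9 was at 30.7 and 38.7 in endothelial-like and 38.1 and 61.9 in fibroblast-like cells, and at most 5.25 in any library of another class. Thinned cells held a Kcnj8 UMI in 13.6% ± 3.42 of endothelial-like and 9.30% ± 0.483 of fibroblast-like cells, and in 0.735% ± 0.0356 of somatotrope-like cells. Unthinned, the shares were 31.8%, 14.7% and 4.10%.

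Markers of mural cells, which surround small vessels, were also highest in fibroblast-like and endothelial-like cells. They were far higher in fibroblast-like cells, while the Kcnj8 libraries of these classes overlapped. The summed level of 6 of them (Rgs5, Pdgfrb, Acta2, Myh11, Cspg4, Notch3) was 388 and 346 CPM in endothelial-like and 1481 and 1818 in fibroblast-like cells, at most 102 in any library of another class and 0 in pituicyte-like cells. Among fibroblast-like cells with UMIs of at least 2 mural markers, 6 of 13 cells in library 1 and 6 of 15 in library 2 held a Kcnj8 UMI, against 4 of 54 and 6 of 68 of the remaining cells. Among endothelial-like cells the same counts were 6 of 10 and 3 of 5, against 34 of 125 and 50 of 151. Most Kcnj8-positive endothelial-like cells thus held fewer than 2 mural markers, as did most endothelial-like cells. Cells were not thinned here, so depth may differ between the groups. The part of mural cells in the Kcnj8 level was not tested. The summed level of 4 erythroid markers was also high in endothelial-like cells (12610 and 3898), in macrophage-like cells (9966 and 853) and in fibroblast-like cells of library 2 (4490, against 72.8 in library 1). Their part was not tested either.

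Kcnj3, which encodes the Kir3.1 subunit, was at 24.5 and 33.7 CPM in melanotrope-like, 24.0 and 19.0 in somatotrope-like, 19.1 and 16.1 in lactotrope-like, 13.4 and 9.93 in corticotrope-like and 4.98 and 4.45 in gonadotrope-like cells. Only the corticotrope-like and gonadotrope-like libraries lay below the rest without overlap. Kcnj3 was higher in somatotrope-like cells (log2 difference 0.72 ± 0.16, edgeR adjusted p = 5.1e-05) and in melanotrope-like cells (1.32 ± 0.32), where the call was lost without library 2 (edgeR adjusted p = 0.356). Kir3.1 needs a partner subunit to reach the membrane. Kcnj9, which encodes the related subunit Kir3.3, was at 14.4 and 17.4 in corticotrope-like cells and at most 3.21 in the other hormone classes, with 103 UMIs in all. Whether it serves Kir3.1 in this way was not tested. Kcnj6, which encodes Kir3.2, reached 8.25 and 4.96 in corticotrope-like cells and was not tested.

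Receptors that couple to inhibitory G proteins and open these channels were followed as a list of 11 genes, of which 5 were tested. In somatotrope-like cells 4 of the 5 were higher and 1 lower, with a median log2 difference of 1.25, where 26.9% of all genes were higher and 19.7% lower and their median was 0.07. The somatostatin receptor genes Sstr2 (11.2 and 19.6 CPM), Sstr3 (15.7 and 15.3) and Sstr5 (21.7 and 22.2) were among those higher. In gonadotrope-like cells 1 was higher and 1 lower (36.5% of all genes called), the former being Sstr3 at 26.9 and 28.0, where Kcnj3 was at its lowest. Drd2, the dopamine receptor gene of lactotropes, was at 0.512 and 0.40 in lactotrope-like cells and had no UMI in any other class tested. Of 10 partner genes of potassium channels 6 were tested. Dpp10, a Kv4 partner, was higher in gonadotrope-like cells (14.4 and 16.5 CPM, log2 difference 3.75 ± 0.44), which also led for Kcnd2, while Dpp6, another Kv4 partner, was higher in lactotrope-like cells (26.4 and 24.3, 0.79 ± 0.15), which led for Kcnd3. Lrrc52 and Lrrc26, partners that shift BK gating, were at most 7.58 CPM in each library of the hormone classes tested, Lrrc52 with 7.58 and 7.20 in somatotrope-like cells.

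Among 6 genes of the sodium pump, which builds the potassium gradient, 5 were tested, and 2 were higher and 1 lower in stem-like cells, where 34.7% of all genes were higher and 23.2% lower, so this count is near the background. Atp1b1 was at 1963 and 1908 CPM there, against 123 to 311 in the hormone classes tested (log2 difference 3.05 ± 0.06, edgeR adjusted p = 2.99e-84). Of 7 related cation channels 3 were tested. Nalcn, which encodes a sodium leak channel that opposes potassium leak at rest, was at 47 and 45 in melanotrope-like cells and 23.3 and 23.5 in lactotrope-like cells, and was lower in lactotrope-like cells (-0.63 ± 0.13).

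Kcnq1ot1, a nuclear non-coding transcript that silences genes next to Kcnq1 on the paternal chromosome, was detected in every class. It was at 180 and 180 CPM in melanotrope-like and 167 and 164 in gonadotrope-like cells, 129 and 132 in lactotrope-like, 127 and 127 in somatotrope-like and 113 and 135 in corticotrope-like cells. It was at 51.6 and 37.7 in macrophage-like cells (log2 difference -1.72 ± 0.22, edgeR adjusted p = 1.94e-11). Differences between hormone classes were small: -0.22 ± 0.06 in somatotrope-like, 0.40 ± 0.12 in melanotrope-like and -0.25 ± 0.10 in corticotrope-like cells. It was also called higher in gonadotrope-like cells (0.25 ± 0.08, edgeR adjusted p = 0.00464) and lower in lactotrope-like cells (-0.18 ± 0.06, edgeR adjusted p = 0.0128). Whether these calls hold under the alternatives is not given here. The somatotrope-like, melanotrope-like and corticotrope-like calls were lost when a library was left out, with edgeR adjusted p-values of 0.282 in somatotrope-like cells without library 2, 0.124 and 0.101 in melanotrope-like cells and 0.40 and 0.0665 in corticotrope-like cells. The corticotrope-like call was also lost in the fit without the pool as a block (0.0884), with DESeq2 (0.12), with doublet calls kept (0.0537), without high-Gh cells (0.102) and without the filter on low counts (0.0799). Kcnq1 itself was near 0 in the hormone classes other than gonadotrope-like cells.

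Somatotrope-like and lactotrope-like cells, which derive from a shared lineage, were compared directly. Of the 34 members 21 were called, 13 higher and 8 lower in somatotrope-like cells, against 48.7% of all genes (31.1% higher, 17.7% lower). Among members with at least 20 CPM in somatotrope-like cells, those with the largest differences were Kcnmb4os2 (log2 difference 3.58 ± 0.16), Kcnmb4 (3.11 ± 0.13), Kcnmb2 (2.80 ± 0.15), Kcnn2 (2.20 ± 0.17) and Kcnk2 (1.99 ± 0.07). The BK pore gene Kcnma1 was higher there as well (1.53 ± 0.18). Kcnk1 (1.78 ± 0.11) and Kcna5 (0.99 ± 0.13) were also higher. Higher in lactotrope-like cells were Kcnk12 (-0.97 ± 0.13, edgeR adjusted p = 1.14e-10) and Kcnh8 (-0.66 ± 0.13, edgeR adjusted p = 9.58e-06). The Kcnh8 call was lost with DESeq2 (adjusted p = 0.138) and without library 2 (edgeR adjusted p = 0.0641).

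Corticotrope-like and melanotrope-like cells both make Pomc and lie in different lobes. Between them 18 of 34 members were called, 7 higher and 11 lower in corticotrope-like cells, against 21% of all genes (10% higher, 11% lower), and 9 and 11 were called without library 1 and without library 2. Higher in corticotrope-like cells were Kcnk2 (3.59 ± 0.24, edgeR adjusted p = 1.27e-18), Kcng2 (3.15 ± 0.60, from 4 UMIs in melanotrope-like cells), Kcnmb2 (2.61 ± 0.43) and Kcna5 (1.80 ± 0.43, lost without library 1 with an edgeR adjusted p of 0.0511). Higher in melanotrope-like cells were Kcnmb4 (-3.42 ± 0.34, edgeR adjusted p = 8.67e-16), Kcnmb4os2 (-2.79 ± 0.49) and Kcnk3 (-2.16 ± 0.48). The BK β genes Kcnmb2 and Kcnmb4 and the background channel genes Kcnk2 and Kcnk3 therefore changed in opposite directions between the Pomc classes. Kcnc1 (-1.30 ± 0.34), Kcnj3 (-1.37 ± 0.41) and Kcnq1ot1 (-0.52 ± 0.14) were also higher in melanotrope-like cells. Leaving out library 1 ended the calls for Kcnc1 (edgeR adjusted p = 0.657, log2 difference -0.46), Kcnq1ot1 (0.169) and Kcnk3 (0.0765), and leaving out library 2 that for Kcnj3 (0.485). Some differences were larger, and still called, when a library was left out. Without library 2 Kcnk2 stood at 4.44, Kcng2 at 4.03, Kcna5 at 2.42, Kcnmb4os2 at -3.66 and Kcnc1 at -2.14, and without library 1 Kcnmb4 stood at -4.15.

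**Figure D5:**
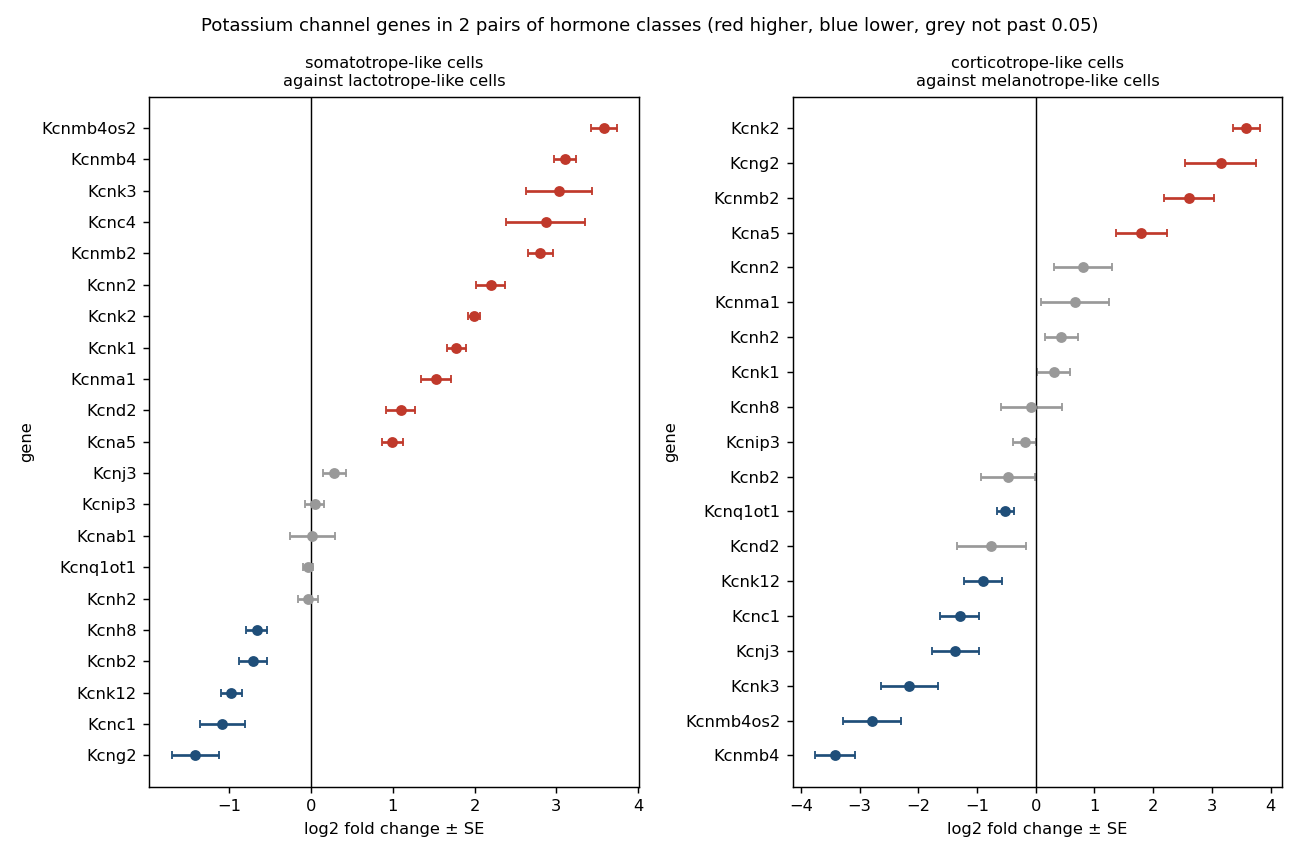
Log2 fold change of Kcn genes in somatotrope-like against lactotrope-like cells (left) and in corticotrope-like against melanotrope-like cells (right), with standard errors as bars. Shown are genes among the same 25, which reached 20 CPM in some class, that had more than 3 UMIs on both sides. Red marks genes higher and blue genes lower at an adjusted p of 0.05, and Kcnmb2 and Kcnk2 lie on the red side of both panels.

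Within a class the levels varied little between clusters. Over 8 somatotrope-like clusters Kcnk2 ran from 237 to 265 CPM with a median of 246, and Kcnmb2, Kcnmb4 and Kcna5 were likewise detected in each. Over 8 lactotrope-like clusters Kcnip3 ran from 28.2 to 55.2 with a median of 34.8, and its highest cluster had 58.5 and 51.9 in the 2 libraries.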

How the data were processed

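Single cells of 2 pools of mouse pituitary glands were profiled with 10x Genomics 3′ chemistry. The authors deposited raw UMI counts per gene and barcode for both libraries in 1 matrix, and Cell Ranger and STAR with the mm10 build are named in the submitters' processing notes, with versions not given in the sources used here. The matrix held 6546 and 7117 barcodes and no column of another series. Filters of at least 500 UMIs, at least 250 genes and no more than 20% mitochondrial reads retained 6505 and 7060 barcodes. Scrublet called no doublet by its own threshold, so the 7.6% of highest score, the expected multiplet rate, were removed (494 and 537). Cells were clustered (scanpy 1.11.5, Python 3.11.15) on 97 marker genes, using 12 principal components, 15 neighbours and Leiden resolution 1, which gave 33 clusters.

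Counts were summed per class and library and tested with edgeR 4.0.16 (R 4.3.3) with the total outside the hormone genes as library size, no TMM scaling, a low-count filter and the pool as a block. Each class came from the same 2 pools, so the libraries are paired by design. The 78 marker genes that passed the filter were left out of the tests. The fit had 22 summed samples and 10 residual degrees of freedom. In simulated data, genes with many UMIs were changed 2-fold in lactotrope-like cells only. All other genes were kept flat over the classes, with the same spread for every gene. The fit recovered 199 of 200 changed genes, with 6 false calls. Recovery in smaller classes or for genes with few UMIs was not tested. DESeq2 1.42.0, other scaling, clustering and filters, and leaving out each library were alternatives. Members that reached 20 CPM in a class were described. Per comparison, up to 8 higher and 8 lower members were named, each past an adjusted p of 0.05, with 1 direction in both libraries and at least 20 CPM on the higher side. Other members, named for family completeness, were chosen after their values were seen. The members and lists were chosen with earlier results of these data known. Positions come from GENCODE on GRCm38, the same assembly as mm10, and start regions from RefSeq. Some genes are not reported here by name or drawn in the figures, and counts over all members include them.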

Additional observations from a re-analysis of the deposited data

Results flagged for a closer look

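In clusters outside the comparisons, 9 levels were above the highest class of the tests. They rest on 4 to 53 UMIs per library, and no test was made. In the thyrotrope-like cluster Kcna5 stood at 57.7 CPM (69.2 and 46.1, from 4 and 7 UMIs), against 39.1 in somatotrope-like cells. Unnamed cluster 31, with 25 and 29 cells, held Kcnmb4 at 140.1 (155 and 125) and Kcnmb4os2 at 68.2 (70.3 and 66.0), against 93.7 and 58.0 in somatotrope-like cells. Unnamed cluster 13, with 61 and 50 cells, held Kcnh2 at 71.6 (67.0 and 76.1), against 49.3 in corticotrope-like cells, and Kcnn2 at 37.5 (39.4 and 35.5), against 28.4 in somatotrope-like cells. Kcnmb2 stood at 52.7 in unnamed cluster 11 and 48.8 in unnamed cluster 15, close to the 48.6 of somatotrope-like cells. Kcnip2 stood at 19.5 in unnamed cluster 2, against 13.7, and Kcnk10 at 6.23 in unnamed cluster 23, against 4.18.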

How the results depend on the processing

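Of 1593 values of named genes under the alternatives, 1513 kept their direction and call, 80 lost the call and 0 reversed, and 155 of 166 counts of called members stayed within 1.5 times. Leaving out a library gave 9 to 11 called members between corticotrope-like and melanotrope-like cells (18 with both), 7 to 10 in melanotrope-like (13), 7 to 10 in cycling (11), 8 to 12 in macrophage-like (16) and 2 to 5 in pituicyte-like cells (13). DESeq2 called 10 members in fibroblast-like, 8 in macrophage-like and 5 in pituicyte-like cells, and TMM scaling 10 in macrophage-like cells. TMM scaling moved the median of all genes from -0.70 to -0.16 in macrophage-like cells, from -0.01 to -0.20 in pituicyte-like cells, from 0.11 to -0.02 in cycling cells and from 0.13 to 0.03 between somatotrope-like and lactotrope-like cells. TMM scaling also split the called members of cycling cells 5 higher and 5 lower, and totals with the hormone genes those of macrophage-like cells 2 higher and 9 lower. Without the pool as a replicate block the counts were 17 between the Pomc classes, 17 in corticotrope-like, 21 in gonadotrope-like and 18 in lactotrope-like cells. Without thinning, the shares of cells with a UMI were 91% (Kcnk1, stem-like), 68.2% (Kcnk2, somatotrope-like) and 61.3% (Kcnk2, corticotrope-like). The cause of the changes was not tested. No value exists for cycling cells without high-Gh cells, or for pituicyte-like cells with doublets kept. Pituicyte-like (22 and 33), fibroblast-like (67 and 83) and macrophage-like cells (62 and 87) were few, and genes with few UMIs there have wide errors.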
